A study of Mus musculus with 6 samples.

Results

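The integrin and laminin genes of the mouse kidney were examined in injured renal cortex with and without brucine A (BA). Members were chosen by gene symbol: the integrin α chains (Itga followed by a number or letter), the integrin β chains (Itgb1 to Itgb8) and the laminin chains (Lama, Lamb and Lamc). Of the 19176 rows in the expression table, 36 matched, namely 25 integrin genes and 11 laminin genes. Of the integrin genes, 7 are chains used mainly by leukocytes (Itgal, Itgam, Itgax, Itgae, Itga4, Itgb2 and Itgb7) and 18 are chains of epithelial, mesenchymal or other cells. Itgad, a further leukocyte chain, has no row in the table. No member's symbol stood on more than 1 row.

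Integrins are receptors built from an α and a β chain that tie a cell to the matrix around it or to another cell, and that signal in both directions across the membrane. Laminins are trimers of an α, a β and a γ chain that form a sheet in the basement membrane under tubule cells, podocytes and endothelium. In the injured kidney, tubule cells hold to laminin and collagen through integrins with the β chain of Itgb1, the αv integrins with the β chains of Itgb6 and Itgb8 release active TGF-β from its latent complex, and leukocytes enter through integrins with the β chain of Itgb2 or Itgb7.

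Bulk RNA sequencing was done on renal cortex of 6 wild-type male C57BL/6J mice, bought at 8 weeks of age, in 2 groups of 3 (n = 3 libraries per group, called biological replicates by the study). In all mice the vessels of the left kidney were clamped for 35 min (unilateral ischemia-reperfusion injury, UIRI), the right kidney was removed on day 13 and tissue was taken on day 14. The UIRI group received daily intraperitoneal vehicle for 14 days, and the UIRI + BA group received 1 mg/kg of the compound that the labels call brucine A and the study's methods call bruceine A on the same schedule. The names may stand for different compounds, the expression data cannot tell which was given, and BA here means the compound given. The deposited table holds no uninjured kidney, and the only comparison is of UIRI + BA with UIRI, which asks how gene expression in the injured cortex differed with the compound.

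The reads assigned to genes numbered 18683621, 18684293 and 38124164 for UIRI replicates 1, 2 and 3 and 16510720, 19725912 and 20313529 for UIRI + BA replicates 1, 2 and 3. With 2.04 times the median depth of the 5 others, UIRI replicate 3 was the deepest library, and it stood apart from the rest of its group. The leading principal component (41.8% of the variance) placed UIRI replicates 1 and 2 at -32.5 and -25.5, but UIRI replicate 3 at 11.1, among the UIRI + BA libraries at 30.5, 3.11 and 13.4. On the next component (23.3%), both libraries numbered 3 lay at the upper end, at 22.7 in UIRI and 17.6 in UIRI + BA. The fold changes below are from all 6 libraries, and beside many of them stand values with a library left out.

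Integrin levels spanned a wide range in this tissue. Per kilobase of exon, the highest level was that of Itgb1, the β chain shared by most matrix-binding integrins, with 3742 ± 629 normalized counts per kilobase in UIRI and 3743 ± 227 in UIRI + BA (SD, n = 3). Itgb5, a β partner of αv, came next with 1820 ± 238 per kilobase in UIRI, followed by Itgav itself with 994 ± 109 per kilobase and by the leukocyte chain Itgb2 with 832 ± 137 per kilobase (SD, n = 3). Itgav and Itgb2 did not differ by more than their spread. Among laminins, Lamb1 with 633 ± 61.2 per kilobase and Lama5 with 593 ± 119 per kilobase in UIRI were highest and overlapped, as did Itgax with 599 ± 103 per kilobase (SD, n = 3). At the lower end, Itga11, a collagen receptor chain of fibroblasts, had 5.44 ± 0.797 per kilobase in UIRI (SD, n = 3), which rested on 21 to 58 reads per library. With the length of the longest transcript in place of all exons, Itgb1, Itgb5 and Itgav kept the first places, and Lamb1 (place 4) stood before Itgb2 (place 5).

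**Figure D1:**
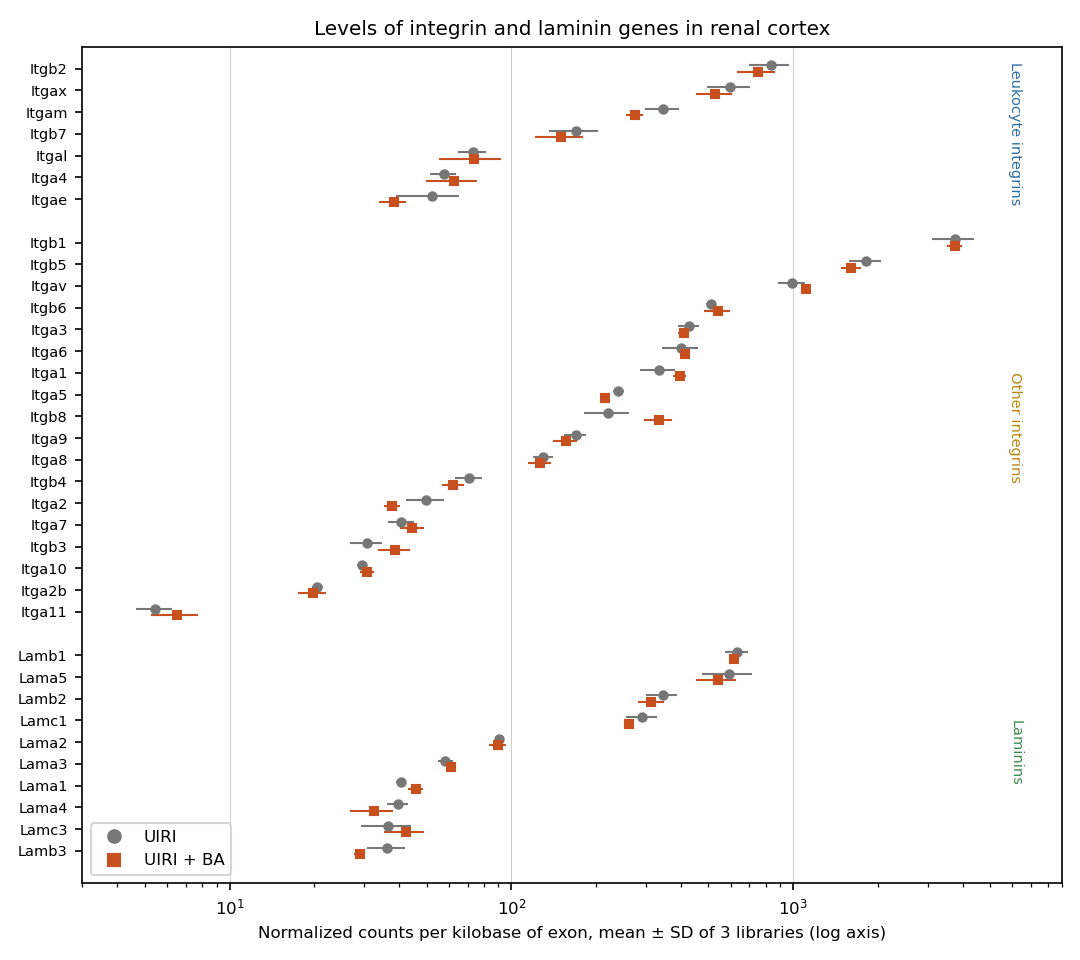
Normalized counts per kilobase of exon (x axis, log scale) of 35 of the 36 integrin and laminin genes (y axis), as the mean ± SD of 3 libraries in UIRI (circles) and UIRI + BA (squares). Itgb1 is highest at 3742 per kilobase and Itga11 lowest at 5.44 per kilobase in UIRI, and for most genes the bars of the groups overlap.

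With BA, no integrin or laminin gene passed limma's test at an adjusted p below 0.05 (0 of 36, with 0.00% of all genes), and edgeR's quasi-likelihood test likewise gave 0 of 36 (0.00% of all genes). The smallest adjusted p of a member in limma was 0.253, for Itgb8. The Wald test of DESeq2, run on recovered reads, called 1 of 36, Itgb8, against 1.35% of all genes with an adjusted p. At an unadjusted p below 0.05, limma gave 6 of 36 members, or 16.7%, against 10.3% of all genes. Of these, 3 were higher with BA (Itgb8, Itga1 and Itgb3, with 5.67% of all genes higher) and 3 lower (Itga2, Itgam and Lamb3, with 4.61% of all genes lower), and with upper quartile scaling 2 were higher and 5 lower. All genes turned likewise under that scaling, with 942 higher and 1046 lower against 1087 and 884 without it. The groups did not overlap in 6 of 36 members, against 14.4% of all genes: Itgb8 and Lama1 were higher in every UIRI + BA library (7.45% of all genes), and Itga2, Itga5, Lamb3 and Lamc1 were lower in every one (6.96% of all genes). These shares of members are close to those of all genes. Among the members, 14 had a higher and 22 a lower mean log2 value with BA, and their median log2 fold change was -0.05, beside -0.01 for all genes.

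Of the 7 leukocyte integrins, 6 were lower and 1 higher with BA (5 and 2 in DESeq2 and edgeR), and the median of their log2 fold changes was -0.17, or -0.32 if UIRI replicate 3 was left out and -0.07 if UIRI + BA replicate 3 was. Of the 18 other integrins, 10 were higher and 8 lower (9 and 9 with upper quartile scaling), with a median of 0.03 (-0.02 without UIRI replicate 1 to 0.05 without UIRI replicate 3). Of the 11 laminins, 3 were higher and 8 lower, with a median of -0.06 (-0.00 without UIRI replicate 3). No test was made of the classes against each other or against other genes.

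**Figure D2:**
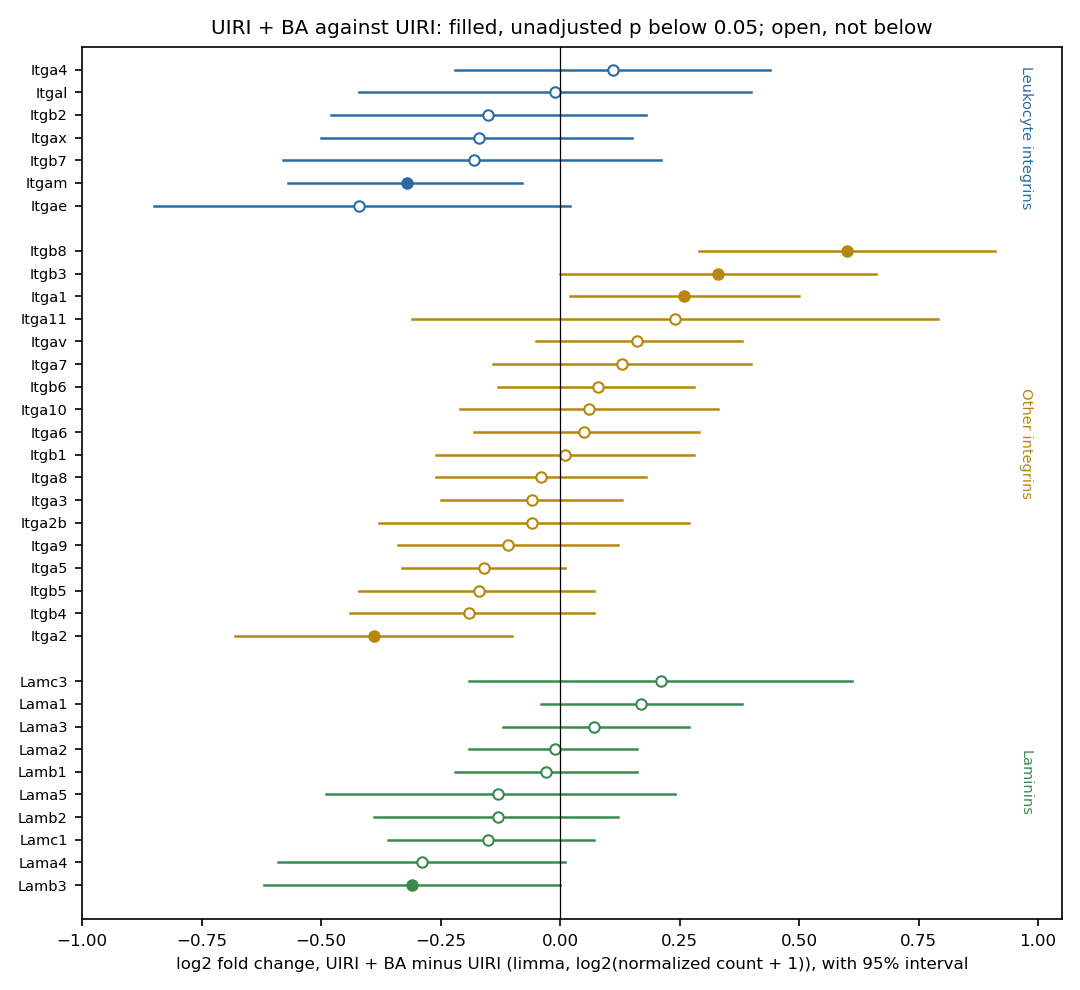
The log2 fold change of 35 of the 36 integrin and laminin genes (y axis), UIRI + BA minus UIRI, from limma on log2 of the normalized count plus 1 (x axis), with its 95% interval as a line. Filled points have an unadjusted p below 0.05, and Itgb8 at 0.60 lies farthest from 0.

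Itgb8 encodes the β chain that pairs with αv alone and that binds the latent form of TGF-β. GENCODE M21 (build GRCm38) places Itgb8 on chromosome 12, minus strand, from 119158022 to 119238802. The expression table gives symbols and names no build, and only the symbol links the measured gene to these coordinates. Its normalized counts, in the order of replicates 1, 2 and 3 as throughout, were 1994, 2452 and 2876 in UIRI against 4031, 3211 and 3794 in UIRI + BA. All 3 UIRI + BA libraries thus lay above all 3 UIRI libraries, and UIRI replicate 3 was the UIRI library nearest to them. The log2 fold change with BA was 0.60 (95% interval 0.29 to 0.91), which is 1.52-fold, with a limma adjusted p of 0.253 and an unadjusted p of 0.00166. DESeq2 gave Itgb8 an adjusted p of 0.00904, and edgeR 0.268. An exact two-sided permutation test gave p = 0.1, the smallest that 3 against 3 allow. Leaving out each library in turn kept the log2 fold change between 0.46 and 0.73, each time with an unadjusted p below 0.05. Over all alternatives the adjusted p of Itgb8 ranged from 0.00904 to 1. A start of Itgb8 is shown because its adjusted p was the smallest among the members. It is the RefSeq window on build GRCm38.p6 at chr12:119238227-119238526, minus strand, from 250 bases before to 50 bases after the annotated start, and it holds none of the motifs searched (GGGCGG, the GC box; GAGGAA, an ETS core; TGANTCA, an AP-1 element; each on both strands). The RefSeq start lies downstream of the outermost start in GENCODE, so that this window falls inside the gene as GENCODE draws it, and the region before that other start was not searched.

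Itgb8: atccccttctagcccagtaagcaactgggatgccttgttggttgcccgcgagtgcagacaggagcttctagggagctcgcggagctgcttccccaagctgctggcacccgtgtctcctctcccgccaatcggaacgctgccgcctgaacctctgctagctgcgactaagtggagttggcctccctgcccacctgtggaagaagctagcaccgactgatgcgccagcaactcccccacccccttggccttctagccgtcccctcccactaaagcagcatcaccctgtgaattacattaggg

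The αv chain and its other β partners moved less. Itgav read 9887, 10125 and 12016 normalized counts in UIRI against 12435, 11801 and 11504 in UIRI + BA, with a log2 fold change of 0.16 (95% interval -0.05 to 0.38). UIRI replicate 3 lay inside the UIRI + BA range, and the log2 fold change of Itgav was 0.25 without it and 0.11 without UIRI replicate 1. Itgb6, the epithelial β chain that also activates TGF-β, read 3488, 3622 and 3774 in UIRI against 3391, 3976 and 4152 in UIRI + BA (log2 fold change 0.08, between 0.02 without UIRI + BA replicate 3 and 0.16 without UIRI + BA replicate 1), and its groups overlapped. The log2 ratio of Itgb8 to Itgb6 was -0.81, -0.56 and -0.39 in UIRI against 0.25, -0.31 and -0.13 in UIRI + BA. Every UIRI + BA library thus had the higher ratio (difference 0.52, exact two-sided permutation test, p = 0.1). The log2 ratio of Itgb8 to Itgav differed likewise without overlap (difference 0.44, exact two-sided permutation test, p = 0.1). Both ratios rest on the Itgb8 values given above and are no separate support for its change.

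Per kilobase, Itgb8 made up 6.94%, 8.01% and 10.9% of the summed Itgb3, Itgb5, Itgb6 and Itgb8 level in UIRI, against 15.2%, 11% and 13.6% in UIRI + BA. The largest share was that of Itgb5, 70.3% ± 4.36 in UIRI and 63.8% ± 2.26 in UIRI + BA (SD, n = 3). Its groups overlapped, as the normalized counts of Itgb5 did (6739, 7141 and 5516 against 5364, 6228 and 5544, log2 fold change -0.17, between -0.28 without UIRI replicate 3 and -0.10 without UIRI replicate 2). Itgb3, the β chain of platelets, endothelium and osteoclasts, had the smallest share. Its normalized counts were 173, 162 and 208 in UIRI against 242, 247 and 194 in UIRI + BA. UIRI + BA replicate 3 lay below UIRI replicate 3, so the groups overlapped. With BA the log2 fold change of Itgb3 was 0.33 with an unadjusted limma p of 0.0496, which no longer passed 0.05 with upper quartile, quantile or TMM scaling (0.0567, 0.0527 and 0.0517), in DESeq2 (0.0764) and in edgeR (0.059). It also failed without UIRI replicate 1 or 2 (0.119 and 0.159) and without UIRI + BA replicate 1 or 2 (0.135 and 0.154).

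Itgb1 read 13974, 13611 and 18228 normalized counts in UIRI against 16297, 14489 and 15042 in UIRI + BA. UIRI replicate 3 was the highest of all 6 libraries and the other UIRI libraries were the lowest, so that the log2 fold change was 0.01 with all libraries (95% interval -0.26 to 0.28) and between -0.06 without UIRI replicate 2 and 0.15 without UIRI replicate 3. Itga8, whose product pairs with that of Itgb1 to bind nephronectin in the developing kidney and marks mesangial cells and fibroblasts in the adult, read 869, 1008 and 992 in UIRI against 922, 1023 and 848 in UIRI + BA (log2 fold change -0.04, and -0.11 to 0.03 with each library left out). In the reference annotation 5.05% of its exon bases are shared with the antisense gene E030013I19Rik. Itga5, the fibronectin receptor chain, read 1158, 1244 and 1154 in UIRI against 1070, 1089 and 1025 in UIRI + BA. Every UIRI + BA value of Itga5 was the lower one, by a small margin (log2 fold change -0.16, 95% interval -0.33 to 0.01, limma adjusted p 0.505), and its unadjusted p was below 0.05 only with upper quartile or quantile scaling and without UIRI replicate 3. Itga9, which binds tenascin and osteopontin, ranged from 1079 to 1394 normalized counts with overlap (log2 fold change -0.11, between -0.18 without UIRI replicate 2 and -0.03 when UIRI + BA replicate 2 was left out).

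**Figure D3:**
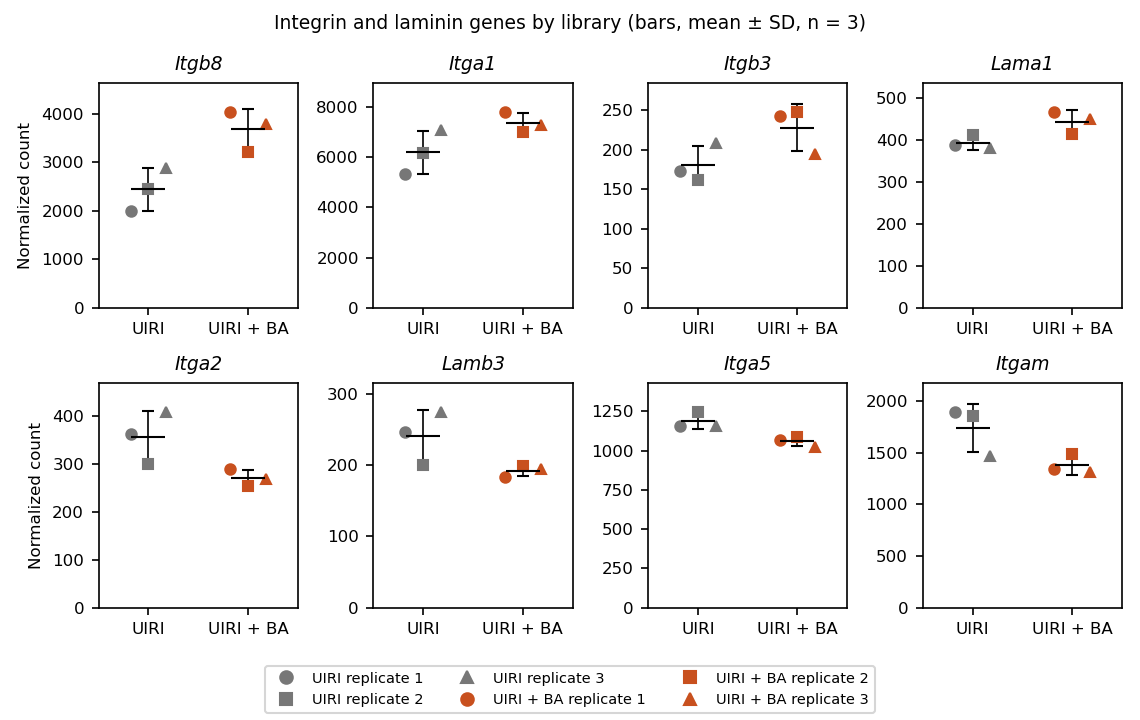
Normalized counts (y axes, from 0) of 8 integrin and laminin genes in each library of UIRI and UIRI + BA, with the mean ± SD of 3 libraries as bars. Circles, squares and triangles are replicates 1, 2 and 3. Itgb8 lies between 3211 and 4031 in UIRI + BA and between 1994 and 2876 in UIRI.

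Among the collagen-binding α chains, Itga1 and Itga2 lay on opposite sides. Itga1, the collagen IV receptor chain of mesenchymal and endothelial cells, read 5336, 6186 and 7066 normalized counts in UIRI against 7789, 6990 and 7296 in UIRI + BA. UIRI replicate 3 lay just above UIRI + BA replicate 2, the only overlap. The log2 fold change of Itga1 was 0.26 (95% interval 0.02 to 0.50, unadjusted limma p 0.0394), and it was 0.15 without UIRI replicate 1 and 0.36 without UIRI replicate 3. The unadjusted limma p of Itga1 was 0.172 and 0.0785 without UIRI replicate 1 or 2, and 0.118 and 0.0783 without UIRI + BA replicate 1 or 3. With a replicate block that p was 0.05, which did not pass the threshold. Itga2, the collagen I receptor chain of epithelium and platelets, read 361, 299 and 407 in UIRI against 288, 253 and 268 in UIRI + BA, with no overlap. Its log2 fold change was -0.39 (95% interval -0.68 to -0.10) with a limma adjusted p of 0.392 and an unadjusted p of 0.0149, which became 0.0523 without UIRI + BA replicate 2. Of the summed level per kilobase of Itga1, Itga2, Itga10 and Itga11, Itga2 made up 13.6%, 10.2% and 12.1% in UIRI against 8.09%, 7.92% and 8.08% in UIRI + BA, and Itga1 79.6% ± 2.04 and 84.0% ± 0.261 (SD, n = 3). Relative to Itga1, the log2 ratio of Itga2 was lower in every UIRI + BA library (difference -0.65, exact two-sided permutation test, p = 0.1). That difference combines the changes of both genes given above and is no separate support for either. Itga10 and Itga11 showed overlapping values, with log2 fold changes of 0.06 (0.01 to 0.09 with each library left out in turn) and 0.24 (0.13 to 0.40). Itga10 shares 33.5% of its exon bases with the annotated gene Gm42957 on the same strand, and Itga1 shares 3.68% with Gm49395, so that reads of these genes are uncertain.

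The laminin-binding chains did not separate the groups. Itga3, which with Itgb1 holds podocytes and collecting duct cells to laminin, read 2284, 2340 and 2683 normalized counts in UIRI against 2265, 2461 and 2282 in UIRI + BA (log2 fold change -0.06, between -0.10 without UIRI replicate 1 and 0.01 without UIRI replicate 3). Itga6, the α chain that pairs with Itgb1 or Itgb4, read 3296, 3330 and 4244 in UIRI against 3893, 3689 and 3630 in UIRI + BA (log2 fold change 0.05). As with Itgb1, UIRI replicate 3 was the highest library of Itga6 and the other UIRI libraries the lowest, and without it the log2 fold change was 0.17 with an unadjusted limma p of 0.0288, but -0.01 without UIRI replicate 1. Itgb4, the hemidesmosome chain of stratified epithelium, read 487, 450 and 557 in UIRI against 481, 411 and 419 in UIRI + BA (log2 fold change -0.19, between -0.26 without UIRI replicate 2 and -0.10 without UIRI replicate 3), and its groups overlapped. Itga7, a chain of muscle cells, ranged from 290 to 381 normalized counts (log2 fold change 0.13, between 0.04 without UIRI replicate 3 and 0.21 when UIRI + BA replicate 1 was left out). Itga2b, the platelet chain, read 116, 114 and 106 in UIRI against 114, 93.7 and 116 in UIRI + BA (log2 fold change -0.06, and -0.11 to 0.04 with each library left out). The 3 platelet markers in the table (Gp1ba, Pf4 and Ppbp of 5 listed) summed to 376, 263 and 305 in UIRI against 178, 225 and 266 in UIRI + BA. All 3 were lower with BA, 2 of 3 at an unadjusted limma p below 0.05 (Pf4 and Ppbp), against 4.61% of all genes. The groups of Pf4, the most abundant, overlapped, and those of Ppbp did not. Ppbp rested on 11 to 59 reads per library and Gp1ba on 10 to 23.

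Laminin α chains give the trimer its place: Lama5 is the main α chain of the mature tubule and glomerulus, Lama1 that of the embryonic kidney and adult proximal tubule, and Lama2 and Lama4 those of mesangium and vessels. Lama5 read 7294, 7759 and 5221 normalized counts in UIRI against 5778, 7296 and 5380 in UIRI + BA. Both libraries numbered 3 and UIRI + BA replicate 1 were low and the other 3 high, so the groups overlapped (log2 fold change -0.13), and the value was -0.30 without UIRI replicate 3 and -0.02 without UIRI replicate 2. Lama1 read 387, 412 and 380 in UIRI against 466, 414 and 451 in UIRI + BA. Its groups did not overlap, although UIRI + BA replicate 2 exceeded UIRI replicate 2 by little (log2 fold change 0.17, 95% interval -0.04 to 0.38, limma adjusted p 0.549). Lama3, an α chain of epithelial basement membranes that is found in trimers with Lamb3, read 611, 669 and 599 in UIRI against 649, 688 and 638 in UIRI + BA (log2 fold change 0.07, between 0.04 without UIRI replicate 3 and 0.12 without UIRI replicate 2). Lama4 read 501, 430 and 502 in UIRI against 346, 361 and 471 in UIRI + BA, with a log2 fold change of -0.29 and an unadjusted limma p of 0.0559. That p fell below 0.05 with upper quartile scaling, with a replicate block, with the GC and length trend removed (with or without the block), and without UIRI replicate 2, UIRI + BA replicate 3 or both libraries numbered 3. With each library left out the value of Lama4 lay between -0.43 and -0.21. Lama2 ranged from 1396 to 1583 normalized counts (log2 fold change -0.01, and -0.07 to 0.02 with each library left out).

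Of the laminin β and γ chains, only Lamb3 passed an unadjusted p of 0.05 with all libraries. Lamb3 read 246, 200 and 274 normalized counts in UIRI against 183, 199 and 194 in UIRI + BA, on 146 to 501 reads per library. Replicate 2 of either group, at 200 and 199, kept the groups apart by little. Its log2 fold change was -0.31 (unadjusted limma p 0.0494), and -0.21 without UIRI replicate 3 (0.156). Of the libraries left out in turn, only without UIRI replicate 2 was its unadjusted p below 0.05 (0.0111). Markers of urothelial cells, which line the pelvis and make Lamb3, are given for comparison. The 9 markers summed to 254, 200 and 709 in UIRI against 88.9, 108 and 453 in UIRI + BA, all 9 lower with BA, 0 of 9 at an unadjusted p below 0.05 in limma (nor any of those given a p by DESeq2 or edgeR), and 7 of 9 lower without UIRI replicate 3, with Krt15 as the most abundant (55.5, 48.4 and 217 against 1.25, 5.38 and 152). The part of urothelial cells in the values of Lamb3, Itga2 and Itgb4 was not tested.

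Lamb1 and Lamc1, chains of most kidney trimers, were both highest in UIRI replicate 3. Lamb1 read 6195, 5709 and 6916 in UIRI against 6013, 6104 and 6240 in UIRI + BA (log2 fold change -0.03, between -0.10 without UIRI replicate 2 and 0.04 without UIRI replicate 3). Lamc1 read 2253, 2228 and 2762 in UIRI against 2217, 2110 and 2181 in UIRI + BA, just without overlap (log2 fold change -0.15, limma adjusted p 0.598), and the value was -0.05 without UIRI replicate 3 and -0.20 without UIRI replicate 2. Lamb2, the β chain of the mature glomerular basement membrane, read 2258, 2242 and 1790 in UIRI against 1778, 2140 and 1813 in UIRI + BA, a pattern over libraries like that of Lama5 (log2 fold change -0.13, between -0.24 without UIRI replicate 3 and -0.07 without UIRI replicate 1). Podocyte markers (6 genes, Podxl the most abundant) summed to 10005, 11438 and 10003 in UIRI against 10271, 11985 and 9194 in UIRI + BA, and 1 of 6 was higher and 5 lower with BA. Lamc3 had 180 to 294 normalized counts (log2 fold change 0.21, between 0.07 without UIRI replicate 3 and 0.36 without UIRI replicate 2). Shares of the chains per kilobase overlapped between groups in every laminin class except for Lamb3, which made up 3.57% ± 0.455 of the β chains in UIRI and 3.03% ± 0.0413 in UIRI + BA (SD, n = 3).

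Among the leukocyte integrins, Itgam, the α chain (CD11b) of macrophages and neutrophils, had the smallest unadjusted p. Itgam read 1892, 1854 and 1467 normalized counts in UIRI against 1343, 1490 and 1310 in UIRI + BA. UIRI replicates 1 and 2 were the highest libraries, and UIRI replicate 3 lay below UIRI + BA replicate 2, so the groups overlapped. The log2 fold change was -0.32 (95% interval -0.57 to -0.08) with a limma adjusted p of 0.398 and an unadjusted p of 0.0156. Without UIRI replicate 3 it was -0.44 with a limma adjusted p of 0.0212 (0.0212 to 1 over all alternatives), and the unadjusted p was 0.066, 0.0607 and 0.0565 without UIRI replicate 1, UIRI replicate 2 or UIRI + BA replicate 3. In the reference annotation 68.7% of the exon bases of Itgam are shared with Gm49368 on the same strand, a gene with no row in the table, so that its count is uncertain.

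Itgb2, the β chain of Itgam, Itgax and Itgal, read 2821, 2740 and 2061 normalized counts in UIRI against 2326, 2620 and 1916 in UIRI + BA (log2 fold change -0.15, between -0.29 without UIRI replicate 3 and -0.03 when UIRI + BA replicate 3 was left out). Itgax, the CD11c chain of dendritic cells and kidney macrophages, showed a like pattern, with 3122, 3197 and 2308 in UIRI against 2522, 2926 and 2182 in UIRI + BA (log2 fold change -0.17, between -0.32 without UIRI replicate 3 and -0.07 when UIRI + BA replicate 3 was left out). Both were low in the libraries numbered 3 of either group and high in UIRI replicates 1 and 2 and UIRI + BA replicate 2. Itgal, the CD11a chain of lymphocytes, read 486, 529 and 422 in UIRI against 541, 563 and 346 in UIRI + BA (log2 fold change -0.01, between -0.14 without UIRI + BA replicate 2 and 0.21 without UIRI + BA replicate 3). Per kilobase, Itgax made up 58.7% ± 1.17 of the summed Itgal, Itgam and Itgax level in UIRI and 60.2% ± 1.14 in UIRI + BA, and Itgam 34.1% ± 0.912 and 31.5% ± 2.17 (SD, n = 3). Relative to Itgb2, the log2 ratio of Itgam was -0.58, -0.56 and -0.49 in UIRI against -0.79, -0.81 and -0.55 in UIRI + BA (difference -0.18, exact two-sided permutation test, p = 0.3).

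Itgam and Itgax are neighbours on chromosome 7, and their promoter windows are shown because Itgam had the smallest p of the leukocyte integrins and Itgax was its most abundant neighbour among the α partners of Itgb2. The windows are from RefSeq on build GRCm38.p6, plus strand, at chr7:128062390-128062689 for Itgam and chr7:128129300-128129599 for Itgax. Capitals mark matches on either strand to the GC box, ETS core or AP-1 element given above. The Itgam window holds 3 ETS cores and 1 GC box, and the Itgax window 1 AP-1 element.

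Itgam: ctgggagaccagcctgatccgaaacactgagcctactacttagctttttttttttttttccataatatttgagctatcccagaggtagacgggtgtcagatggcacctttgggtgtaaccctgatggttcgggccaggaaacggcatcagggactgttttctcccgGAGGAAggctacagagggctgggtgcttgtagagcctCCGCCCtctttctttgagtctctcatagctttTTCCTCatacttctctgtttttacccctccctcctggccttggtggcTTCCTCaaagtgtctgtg
Itgax: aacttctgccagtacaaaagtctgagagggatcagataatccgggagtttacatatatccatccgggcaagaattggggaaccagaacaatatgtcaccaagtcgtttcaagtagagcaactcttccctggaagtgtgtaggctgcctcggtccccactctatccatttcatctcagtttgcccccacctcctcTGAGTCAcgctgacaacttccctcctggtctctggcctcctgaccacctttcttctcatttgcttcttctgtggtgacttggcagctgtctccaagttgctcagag

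Of all 32851 windows of this length, 28.3% hold an ETS core, 35.7% a GC box and 7.81% an AP-1 element. RefSeq gave 26 windows for 23 of the 36 members, with 2 each for Lamb3, Itgb6 and Itga3, and in at least 1 window 14 members hold an ETS core, 11 a GC box and 3 an AP-1 element. These counts per member are not directly comparable with the shares per window. A match is a run of letters and not a binding site.

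The β chain of Itgb7 and the α chain of Itgae form the receptor that holds T cells and some dendritic cells to E-cadherin on epithelium. Itgae read 265, 282 and 170 normalized counts in UIRI against 197, 169 and 160 in UIRI + BA. UIRI replicates 1 and 2 stood above the other 4 libraries (log2 fold change -0.42, 95% interval -0.85 to 0.02, limma adjusted p 0.499). Without UIRI replicate 3 the log2 fold change of Itgae was -0.65 with a limma adjusted p of 0.0334 (0.0334 to 1 over all alternatives), and -0.28 without UIRI replicate 2. The unadjusted p of Itgae, not below 0.05 in limma with all libraries, was so in DESeq2 and with a replicate block. Itgb7 ranged from 354 to 551 normalized counts (log2 fold change -0.18, between -0.35 without UIRI replicate 3 and -0.06 without UIRI replicate 2). Itga4, which with Itgb1 or Itgb7 binds Vcam1 on other cells, was the only leukocyte integrin with a positive log2 fold change in limma, at 709 to 875 in UIRI and 711 to 1065 in UIRI + BA (0.11, but -0.04 without UIRI + BA replicate 1 and 0.25 without UIRI + BA replicate 3), and 8.04% of its exon bases are shared with the antisense gene Cerkl.

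Levels of leukocyte markers are given beside these chains. The 4 general markers, with Ptprc (CD45) as the most abundant, summed to 20893, 20394 and 16631 in UIRI against 17742, 18678 and 14862 in UIRI + BA. Of these, 4 of 4 were lower with BA, 1 at an unadjusted p below 0.05, against 4.61% of all genes. The 8 markers of macrophages and dendritic cells, with Lyz2 as the most abundant, summed to 114169, 103465 and 78904 in UIRI against 80215, 88512 and 75662 in UIRI + BA, and 8 of 8 were lower with BA, 0 at an unadjusted p below 0.05 in limma, 4 in DESeq2 and 2 in edgeR. Without UIRI replicate 3, 7 of these 8 passed in limma, all lower, against 25.2% of all genes. A limma adjusted p below 0.05 was reached by 3 of 8 in that fit, against 5.02% of all genes. The log2 ratio of Itgam to Csf1r, a macrophage receptor, was -1.87, -1.79 and -2.03 in UIRI against -2.12, -1.95 and -2.08 in UIRI + BA, which overlapped (difference -0.16, exact two-sided permutation test, p = 0.2). In bulk tissue, fewer cells of a type and less RNA of a gene per cell cannot be told apart, and the part of leukocyte numbers in the integrin values was not tested.

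Among narrower markers, the 3 neutrophil genes in the table (S100a8, S100a9 and Csf3r of 4 listed) summed to 1638, 1489 and 1160 in UIRI against 1071, 1093 and 977 in UIRI + BA, 3 of 3 lower with BA. S100a8 (log2 fold change -0.77) and S100a9 (-0.69) did not overlap between groups, with adjusted p of 0.291 and 0.225 in limma and 0.0316 and 0.0131 in DESeq2. The 5 T cell markers summed to 1444, 1320 and 1099 in UIRI against 1265, 1518 and 916 in UIRI + BA, 4 of 5 lower. The 5 B and plasma cell markers summed to 508, 426 and 361 in UIRI against 392, 474 and 261 in UIRI + BA, 4 of 5 lower. Relative to Cd3e, the log2 ratio of Itgae was 1.10, 1.22 and 0.79 in UIRI against 0.61, 0.21 and 1.07 in UIRI + BA (difference -0.41, exact two-sided permutation test, p = 0.2). UIRI + BA replicate 3 was the lowest library in 6 of the 7 leukocyte integrins, and it had the lowest of each of the 5 leukocyte marker sums.

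**Figure D4:**
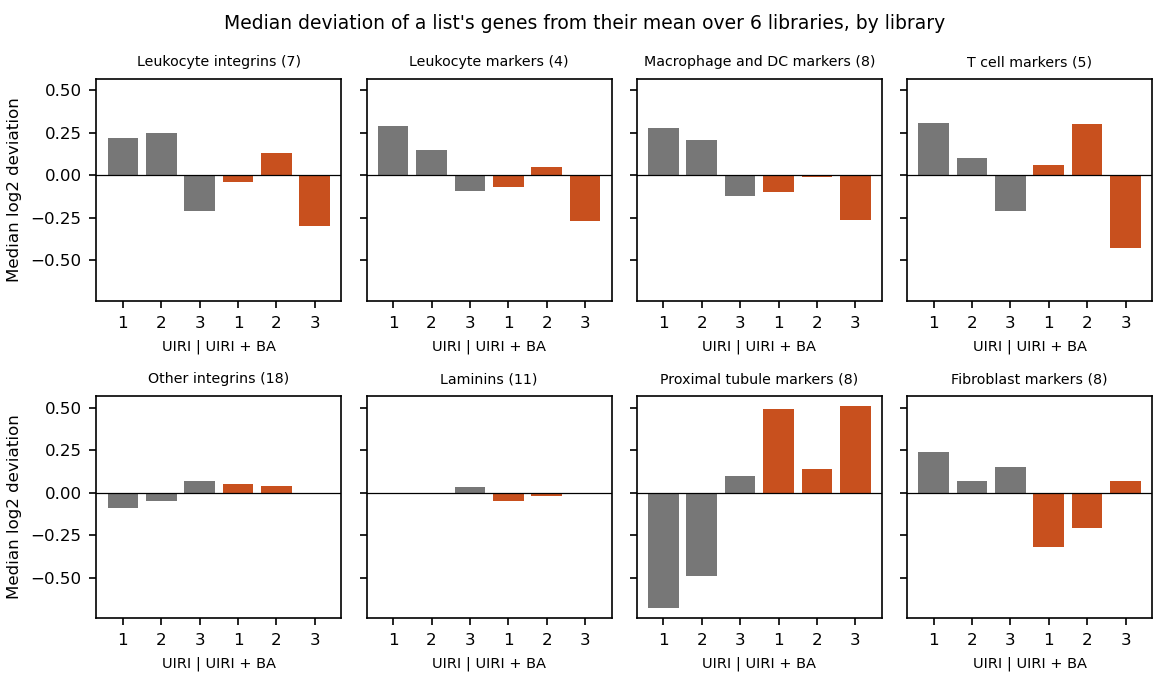
Median log2 deviation of the genes of a list from their own mean over the 6 libraries (y axes), for each library of UIRI (gray, replicates 1 to 3) and UIRI + BA (orange, replicates 1 to 3), with the number of genes in parentheses. Leukocyte integrins lie at 0.22, 0.25 and -0.21 in UIRI and at -0.04, 0.13 and -0.30 in UIRI + BA, and the leukocyte, macrophage and T cell markers are likewise lowest in UIRI + BA replicate 3.

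All 8 proximal tubule markers were higher with BA at an unadjusted limma p below 0.05, against 5.67% of all genes. DESeq2 gave 4 of them an adjusted p below 0.05, against 1.35% of all genes with an adjusted p. In limma and edgeR, 0 of 8 had an adjusted p below 0.05, and the smallest in limma was 0.26. With Slc34a1 as the most abundant, the 8 markers summed to 13461, 15901 and 21285 in UIRI against 26493, 23374 and 27594 in UIRI + BA. The log2 ratio of Itgb8 to Slc34a1 was -1.95, -1.89 and -1.93 in UIRI against -1.66, -2.00 and -1.90 in UIRI + BA (difference 0.07, exact two-sided permutation test, p = 0.8). Against Lrp2, another proximal tubule marker, the ratio of Itgb8 was lower by 0.18 with BA, with overlap (exact two-sided permutation test, p = 0.3). Against Umod, a thick limb marker, the difference was 0.47 (exact two-sided permutation test, p = 0.2). No such test of 3 against 3 can go below 0.1, and the part of proximal tubule cells in the values of Itgb8 was not tested.

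The 4 thick limb markers summed to 35718, 25600 and 41860 in UIRI against 35555, 31187 and 43940 in UIRI + BA, 3 of 4 higher with BA, 0 at an unadjusted p below 0.05 in limma, DESeq2 or edgeR. The 6 collecting duct markers summed to 2950, 2866 and 3508 in UIRI against 4349, 4025 and 2744 in UIRI + BA, 6 of 6 higher, likewise 0 at an unadjusted p below 0.05 in each tool. Without UIRI replicate 3, 1 of 4 thick limb and 2 of 6 collecting duct markers passed in limma, all higher, against 25.2% of all genes. Of the collecting duct markers, 1 had a limma adjusted p below 0.05 in that fit, against 5.02% of all genes. The 6 injured tubule markers summed to 34980, 39068 and 35313 in UIRI against 41957, 46610 and 45022 in UIRI + BA, and 4 were higher (Havcr1, Vcam1, Krt20 and Sox9) and 2 lower (Lcn2 and Cdkn2a). Of these 6, 5 had an unadjusted limma p below 0.05 (all but Sox9), against 10.3% of all genes. DESeq2 gave 3 an adjusted p below 0.05 (0.000791 for Lcn2, 0.0113 for Cdkn2a and 0.0139 for Havcr1), against 1.35% of all genes with an adjusted p. The smallest limma adjusted p of the list was 0.225. Itgb6, the αv partner of injured epithelium, showed no such separation.

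Of 33 genes whose products act with integrins in adhesion and signaling, 17 were higher and 16 lower with BA (median log2 fold change 0.01), and 1 passed an unadjusted p of 0.05, against 10.3% of all genes. Without UIRI replicate 3, 10 of 33 passed, 8 higher and 2 lower, against 25.2% of all genes, and 3 had a limma adjusted p below 0.05, against 5.02%. The gene that passed with all libraries was Tns1, which links the integrin tail to actin, at 12106, 12468 and 15176 normalized counts in UIRI against 17543, 15465 and 16195 in UIRI + BA. Its groups did not overlap, by a narrow margin between UIRI replicate 3 and UIRI + BA replicate 2. The log2 fold change of Tns1 was 0.31 (limma adjusted p 0.397, DESeq2 adjusted p 0.217), between 0.25 without UIRI replicate 1 and 0.41 without UIRI replicate 3. Its unadjusted limma p was below 0.05 in 3 of the 6 fits with a library left out. Tln1, the talin that activates integrins, read 5914, 6058 and 5546 in UIRI against 5843, 6083 and 5315 in UIRI + BA (log2 fold change -0.02, between -0.07 without UIRI + BA replicate 2 and 0.03 without UIRI + BA replicate 3). Ptk2, the focal adhesion kinase, read 1254, 1244 and 1404 in UIRI against 1270, 1263 and 1321 in UIRI + BA (log2 fold change -0.02, between -0.05 without UIRI replicate 2 and 0.04 without UIRI replicate 3). Ilk, the integrin-linked kinase, had few reads, with 7.93, 9 and 11.5 normalized counts in UIRI against 12.5, 12.9 and 6.26 in UIRI + BA. In the reference annotation 76.7% of the exon bases of Ilk are shared with Taf10 on the other strand, so that its count is uncertain.

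Among the partners of laminin in the basement membrane, 14 of 19 were lower with BA and 3 passed an unadjusted p of 0.05, all of them lower (10.3% of all genes pass). Without UIRI replicate 3, 11 of 19 were lower and 9 passed, 4 higher and 5 lower, against 25.2% of all genes. Nid2, which bridges laminin and collagen IV, read 1014, 1076 and 1053 normalized counts in UIRI against 859, 814 and 835 in UIRI + BA. The groups were well apart (log2 fold change -0.32, limma adjusted p 0.253, DESeq2 adjusted p 0.0751), and the value lay between -0.35 and -0.31 with each library left out. Without UIRI replicate 3 the limma adjusted p of Nid2 was 0.0465. Antisense Rtraf shares 8.45% of the exon bases of Nid2. Col4a5, a collagen IV chain of the tubule and glomerulus, read 1910, 1822 and 1912 in UIRI against 1634, 1668 and 1649 in UIRI + BA (log2 fold change -0.19). Col15a1 read 9793, 8896 and 10010 in UIRI against 7509, 7142 and 9112 in UIRI + BA, with overlap through UIRI + BA replicate 3 (log2 fold change -0.28). Col4a1, the most abundant of these genes by count, read 18762, 19680 and 21296 in UIRI against 20020, 18645 and 19839 in UIRI + BA (log2 fold change -0.03, between -0.07 without UIRI replicate 1 and 0.02 without UIRI replicate 3).

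Of the 15 matrix ligands of integrins, 11 were lower with BA, and the 5 at an unadjusted p below 0.05 were all lower (10.3% of all genes pass). That rests on UIRI replicate 3: without it 9 of 15 passed, 4 higher and 5 lower, against 25.2% of all genes. Fn1, the fibronectin bound by the Itga5 and αv receptors, read 21066, 21277 and 16898 normalized counts in UIRI against 14725, 16892 and 15496 in UIRI + BA. UIRI replicate 3 was close to UIRI + BA replicate 2, and the groups did not overlap by a narrow margin (log2 fold change -0.32, limma adjusted p 0.403). Tnc, a tenascin of scars bound by Itga9, read 6827, 4946 and 7525 in UIRI against 3773, 3403 and 5294 in UIRI + BA. UIRI + BA replicate 3 overlapped the UIRI group, and the log2 fold change was -0.63, with an adjusted p of 0.348 in limma and 0.0405 in DESeq2 (0.035 to 1 over all alternatives). Fbn1 read 4185, 3633 and 3890 in UIRI against 2849, 3312 and 3374 in UIRI + BA without overlap (log2 fold change -0.30). In the reference annotation 20.1% of the exon bases of Fbn1 are shared with Gm9913 on the other strand. Vtn, the vitronectin bound by αv integrins, had 13.6, 18 and 11.5 normalized counts in UIRI against 7.52, 5.38 and 8.35 in UIRI + BA (log2 fold change -0.92) on as few as 5 reads. Npnt, the ligand of the Itga8 receptor, read 3523, 4015 and 6067 in UIRI against 6086, 4209 and 5441 in UIRI + BA with overlap (log2 fold change 0.23, between 0.07 without UIRI replicate 1 and 0.46 without UIRI replicate 3).

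Of the fibroblast and myofibroblast markers, 8 of 8 were lower with BA, 5 at an unadjusted limma p below 0.05, against 4.61% of all genes. At an adjusted p below 0.05 there were 0 of 8 in limma (smallest 0.291) and 2 of 8 in DESeq2. With Col3a1 as the most abundant, the 8 markers summed to 111657, 93548 and 100427 in UIRI against 69200, 73474 and 90780 in UIRI + BA. The 5 markers of smooth muscle and mesangium summed to 2426, 2467 and 1773 in UIRI against 1729, 2122 and 2188 in UIRI + BA, and the 6 endothelial markers to 7771, 7670 and 7330 and to 6905, 7458 and 7407. Their part in the values of Itga5, Lama4 and the ligands was not tested.

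On the cells that leukocyte integrins bind, 6 of 8 counter-receptors were higher with BA. At an unadjusted limma p below 0.05 there were 2 of 8, 1 higher and 1 lower, against 10.3% of all genes. Without UIRI replicate 3, 5 of 8 were higher and 5 passed, 3 higher and 2 lower, against 25.2% of all genes. Vcam1, the partner of Itga4 that injured tubule cells also carry, read 13846, 15765 and 12595 normalized counts in UIRI against 17766, 17781 and 17980 in UIRI + BA. All UIRI + BA libraries were above all UIRI libraries (log2 fold change 0.35, limma adjusted p 0.311, DESeq2 adjusted p 0.0648). Icam1, the partner of the Itgb2 receptors, read 2082, 2313 and 1883 in UIRI against 2329, 2537 and 1987 in UIRI + BA with overlap (log2 fold change 0.12, between 0.04 without UIRI + BA replicate 2 and 0.22 without UIRI + BA replicate 3). Icam2, an endothelial partner of Itgal, read 218, 238 and 192 in UIRI against 152, 182 and 182 in UIRI + BA, lower in each UIRI + BA library (log2 fold change -0.33, limma adjusted p 0.465).

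More genes passed the test without UIRI replicate 3 than with all libraries or without any other library. Without it, 4 of 36 members had a limma adjusted p below 0.05, against 5.02% of all genes: Itgb8 and Itga1 were higher with BA, at log2 fold changes of 0.73 and 0.36, and Itgam and Itgae lower, at -0.44 and -0.65. At an unadjusted p below 0.05 there were 15 of 36, against 25.2% of all genes, and 5 of these 15 were higher and 10 lower. They included 5 of the 7 leukocyte integrins (Itgae, Itgam, Itgax, Itgb2 and Itgb7), whose median log2 fold change was then -0.32. The markers of macrophages and dendritic cells had a median of -0.41 in that fit (-0.27 with all libraries), and the proximal tubule markers 1.00 (0.75 with all libraries). With both libraries numbered 3 left out, which was chosen after seeing the data, 2 of 36 members passed an adjusted p of 0.05, Itgb8 and Itgam, beside 557 of all 19176 genes.

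**Figure D5:**
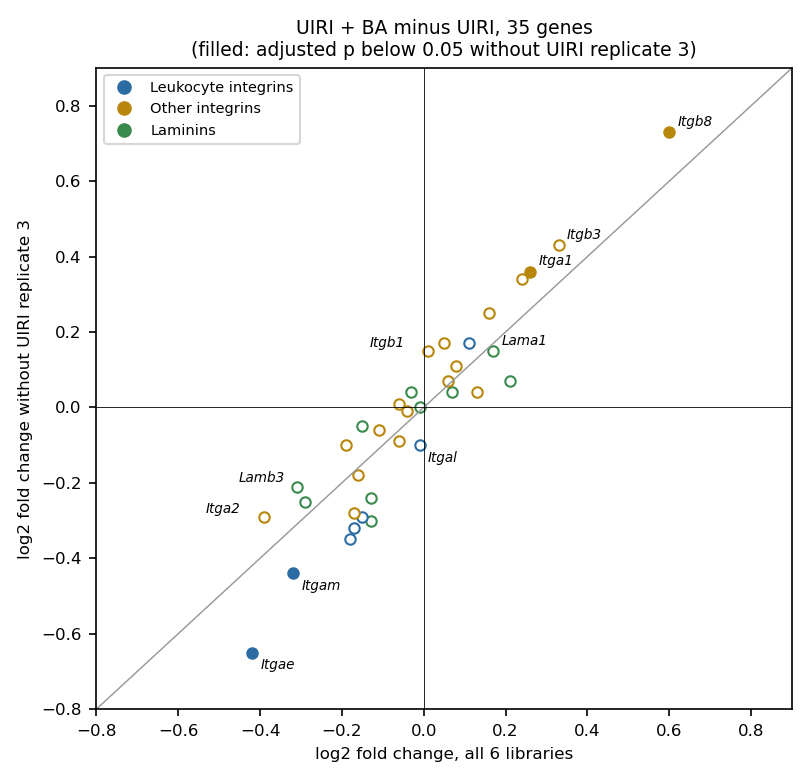
The log2 fold change of 35 of the 36 genes, UIRI + BA minus UIRI, with all 6 libraries (x axis) and without UIRI replicate 3 (y axis). The diagonal marks equal values, filled points have a limma adjusted p below 0.05 without that library, and Itgb8, Itga1, Itgam and Itgae are the filled points.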

How the data were processed

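Renal cortex RNA of 6 mice was analysed, 3 of UIRI and 3 of UIRI + BA, grouped by the library labels. Libraries were described as strand-specific, but the strand setting of the counting is not given in the sources used here, nor are the genome build and annotation. According to the methods, paired 150 bp reads were aligned by HISAT2, FeatureCounts gave gene counts and DESeq2 was used. The signal deposited by the authors for each gene in each library equals reads over the size factor of that library: 100% of the values were whole multiples of the value of 1 read (tolerance 0.01), which gave back whole reads. The table holds rows with at least 10 reads over the 6 libraries. Its columns of fold changes, p-values and adjusted p-values, and the deposited Gene Ontology and KEGG enrichment tables with their counts and ratios, hold the authors' own comparison and were not used. No column of values per library went unused.

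limma 3.58.1 (R 4.3.3, trended variance, no covariate) was fitted on the log2 scale after adding 1, over all 19176 rows, with Benjamini-Hochberg adjustment over all of them. Fold changes are on that scale, which understates the change of low genes. DESeq2 1.42.0 and edgeR 4.0.16 (quasi-likelihood test, 17155 genes kept by its filter) were run on the recovered reads. DESeq2 called 213 genes and edgeR 0 at an adjusted p below 0.05, and at an unadjusted p below 0.05 limma gave 1971, DESeq2 1511 and edgeR 1703. Single ratios were compared with an exact permutation test (20 arrangements). Exon lengths, shared exons and GC content came from GENCODE M21 on GRCm38, in which 98.19% of the symbols were found. In counts simulated with low dispersion, limma, DESeq2 and edgeR called 97, 98 and 98 of 100 genes altered by a log2 of 1, with 6, 14 and 7 false calls, and 0 genes each where none was altered. The members' log2 fold changes, -0.42 to 0.60, were all smaller than that. No simulated library stood apart from its group as UIRI replicate 3 did. These counts therefore do not show how often changes of the members' size would be found here. Other alternatives were quantile, upper quartile and TMM scaling, a pseudocount of 0.1, keeping only genes with values of at least 1 throughout, a replicate block, each library left out, and, added after seeing the data, removal of the trend with GC content and length, alone or with the block, and leaving out both libraries numbered 3.

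The members, the lists of other genes and of cell markers, and the rule for named genes were chosen with earlier results of these data known. Members were named with the value in each library if their unadjusted p was below 0.05, their groups did not overlap, they were highest per kilobase in their role or they stood on a list of main chains, and other pathway genes if they were among the 4 with the smallest p below 0.05 of their list or on a short list. All 36 members are in the counts, but 1 of them is not described or drawn by itself. The libraries held between 16510720 and 38124164 assigned reads. The lowest member, Itga11, had 21 to 58 reads per library and Itgb1 12101 to 33284, so that for most members the spread between 3 animals rather than counting limits the precision.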

Additional observations from a re-analysis of the deposited data

How the results depend on the processing

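Counts of all genes and of members, both directions together, stayed within 1.5 times of the given ones under upper quartile, quantile and TMM scaling, the filter, the pseudocount of 0.1 and edgeR (by direction, members lower at an unadjusted p below 0.05 went from 3 to 5 with upper quartile scaling), and the medians of leukocyte and other integrins within the spread between libraries. The median log2 fold change of laminins, -0.06 in the given fit, was -0.08 under quantile normalization, upper quartile scaling, edgeR and DESeq2. DESeq2 gave 213 genes and 1 member (Itgb8) at an adjusted p below 0.05, where limma gave 0 of each.

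With each library left out in turn, genes with an adjusted p below 0.05 numbered 0 to 962 and those with an unadjusted p below 0.05 808 to 4838, members with an adjusted p below 0.05 0 to 4 and those with an unadjusted p below 0.05 2 to 15, and the medians lay between -0.32 and -0.07 for leukocyte integrins, -0.02 and 0.05 for other integrins and -0.08 and -0.00 for laminins. The low end of the unadjusted counts was without UIRI replicate 1, and the high end of all counts without UIRI replicate 3. With both libraries numbered 3 left out, an alternative added after seeing the data, there were 557 genes and 2 members at an adjusted p below 0.05, and 4440 genes and 11 members at an unadjusted p below 0.05. The causes of these differences were not tested.

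The labels do not say whether the replicate numbers pair the animals. The correlations of same-numbered libraries' deviations from their group means were -0.24, 0.30 and 0.15. Those of differently numbered libraries lay between -0.41 and 0.24. With 3 libraries per group, these correlations cannot decide whether same-numbered animals were paired. With a replicate block limma called 6 genes, none of them a member, and with the block and the GC and length trend removed together (added after seeing the data) 142 genes and 1 member (Itgb8). Without the block, removal of the trend gave 0 genes, with 2343 at an unadjusted p below 0.05.

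Itgb8 kept its direction and an unadjusted p below 0.05 in all 17 alternatives. Itgb3 and Lamb3 lay close to that threshold and lost it in many. No named gene passed an unadjusted p of 0.05 in the other direction in any alternative. With 3 animals per group, small differences cannot be told from the spread between animals, and protein was not measured here.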
